A study of Homo sapiens with 2 samples.

Results

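The miR-365 and miR-193 microRNAs were followed here in an oral squamous cell carcinoma line and in an invasive derivative of it. Members were the 6 entries named miR-365a-3p, miR-365a-5p, miR-193b-3p, miR-193b-5p, miR-193a-5p and miR-193a-3p, out of 1178 entries with miRNA names. They were chosen because both arms of miR-365a were higher in the derivative, so the miR-365a ratios below are a description and were not tested. The miR-193 arms were added as products of the neighbouring hairpins. Small RNA was sequenced from parental UM-SCC6 and from UM-SCC6-M, with 1 library of each. UM-SCC6-M was raised from parental cells that had crossed the matrix of a microfluidic chip, over 3 rounds, and the labels call it highly invasive and partly mesenchymal. The cells were regrown in dishes between rounds, so selection and regrowth cannot be told apart. With 1 library per group there is no replicate check, and no test between the groups was made.

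MicroRNAs reduce the output of messenger RNAs to which they pair, chiefly through the seed near the microRNA's 5′ end. They are cut out of hairpins, and a hairpin can release a mature RNA from its 5p arm, its 3p arm or both. In the human genome a miR-193 hairpin stands upstream of a miR-365 hairpin at a pair of loci, and the members of each pair are often transcribed together. miR-193b and miR-365 are known from brown fat differentiation. miR-193 members are reported to repress MCL1, a survival protein, and PLAU, a protease of matrix breakdown. Cyclin D1, which drives entry into the cell cycle, is a reported target of both families. miR-193a has been reported as silenced by DNA methylation in oral cancer.

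The hairpins are shown because the arms that were counted differ between the loci in only a few bases. All 6 members matched a RefSeq miRNA, and the sequences and positions come from RefSeq on GRCh38.p14, not from the authors' file. The mature arms are in capitals, the 5p arm first.
MIR193B: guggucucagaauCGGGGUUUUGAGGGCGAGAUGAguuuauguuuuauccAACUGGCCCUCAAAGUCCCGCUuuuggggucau
MIR365A: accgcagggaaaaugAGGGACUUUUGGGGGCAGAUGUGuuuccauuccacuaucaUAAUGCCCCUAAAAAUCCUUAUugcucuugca
MIR193A: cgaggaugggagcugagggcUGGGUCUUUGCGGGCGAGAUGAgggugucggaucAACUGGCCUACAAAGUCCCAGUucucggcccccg
MIR365B: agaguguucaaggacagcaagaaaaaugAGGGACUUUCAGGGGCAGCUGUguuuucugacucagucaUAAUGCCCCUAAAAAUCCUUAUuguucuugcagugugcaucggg

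MIR193B lies at chr16:14303967-14304049 and MIR365A at chr16:14309285-14309371, both on the plus strand with 5235 bases between them. Both fall within introns of the long noncoding host gene MIR193BHG in GENCODE release 29 (GRCh38). MIR193A lies at chr17:31559996-31560083 and MIR365B at chr17:31575411-31575521, also on the plus strand, with 15327 bases between them. No other GENCODE gene covers MIR193A. MIR365B lies within the noncoding gene AC003101.1, and 11 of its bases overlap an exon of that gene. The miR-193 hairpins matched at 58 of 79 aligned bases (73.4%) and the miR-365 hairpins at 73 of 86 (84.9%).

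The mature RNAs are grouped by seed, bases 2 to 8 from the 5′ end, which is in capitals.
miR-365a-3p: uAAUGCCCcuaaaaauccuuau
miR-365b-3p: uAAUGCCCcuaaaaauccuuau
miR-365a-5p: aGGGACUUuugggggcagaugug
miR-365b-5p: aGGGACUUucaggggcagcugu
miR-193b-3p: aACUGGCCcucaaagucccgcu
miR-193a-3p: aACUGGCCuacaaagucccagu
miR-193b-5p: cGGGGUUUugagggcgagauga
miR-193a-5p: uGGGUCUUugcgggcgagauga

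miR-365a-3p and miR-365b-3p are the same RNA, so reads named miR-365a-3p can come from either locus. No entry named miR-365b-3p was used here. The 5p arms can be told apart, since miR-365b-5p differs from miR-365a-5p by U10C, G11A and A19C (miR-365a-5p base first, positions counted from 1 at the 5′ end). miR-193a-3p and miR-193b-3p share their seed and differ by U9C, A10U, A20G and G21C (miR-193a-3p base first). The miR-193 5p arms differ by U1C, U5G, C6U and C11A (miR-193a-5p base first), and U5G and C6U fall in the seed, so their seeds are not the same. Among 2370 RefSeq mature miRNA names, the 3p seeds and the miR-365 5p seed occurred in 2 names each, those listed above, and each miR-193 5p seed in 1 name.

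**Figure D1:**
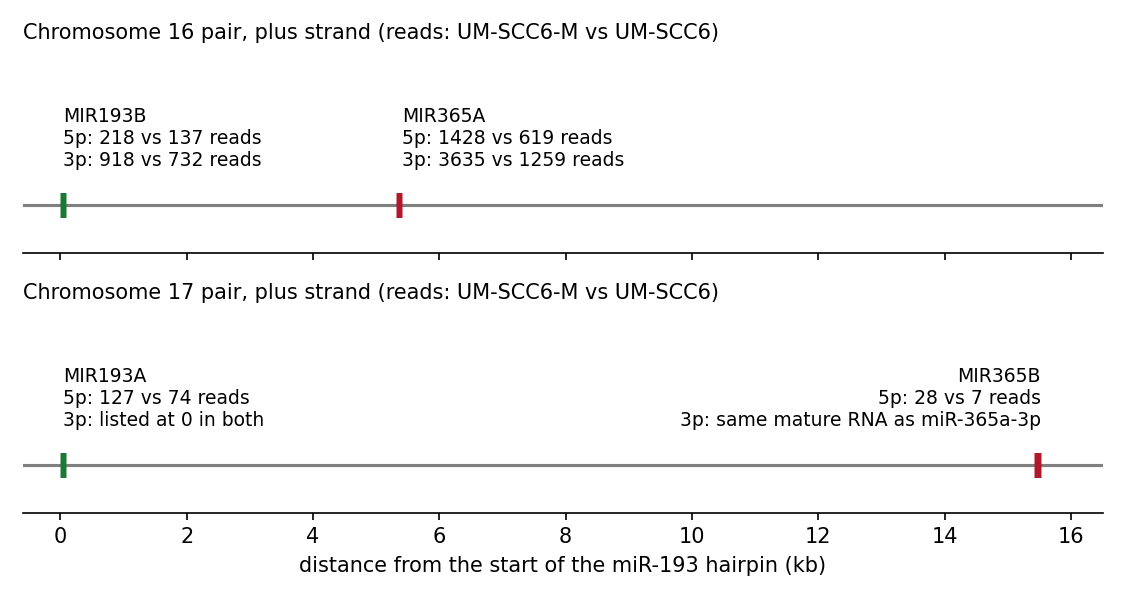
Map of the pair on chromosome 16 (top) and the pair on chromosome 17 (bottom), with distance in kb from the start of the miR-193 hairpin on the x axis and hairpins to scale as coloured blocks. The text gives the recovered reads of each arm in the UM-SCC6-M and parental libraries, and most reads carry names of the chromosome 16 hairpins, with miR-365a-3p at 3635 and 1259 reads.

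Values are normalized reads, the read signal as scaled by the authors. Reads were recovered as whole multiples of 1 step per library, and the libraries held 7699031 (UM-SCC6-M) and 8182437 (parental) recovered reads over named miRNAs. These totals are sums over entries, and reads listed under more than 1 name count in each. Ratios are UM-SCC6-M over parental, with exact 95% intervals. PCR copies of a molecule count as separate reads, so the intervals describe counting error alone. All members are 22 or 23 bases long, so levels were compared between them without a correction for length. No correction for other differences between their sequences was made, so comparisons between miRNAs are of reads and not of molecules.

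miR-365a-3p, the most abundant member, stood at 434.0 normalized reads in UM-SCC6-M and 167.3 in the parental library. It ranked 84 and 121 among the named miRNAs of these libraries. The UM-SCC6-M value was the higher, by 2.59-fold (2.43 to 2.77), on 3635 against 1259 reads.

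miR-365a-5p, from the other arm of the hairpin, stood at 170.5 normalized reads in UM-SCC6-M and 82.3 in the parental library, on 1428 against 619 reads. It too was higher in UM-SCC6-M, by 2.07-fold (1.89 to 2.28), an interval that reaches below 2-fold. The rule of size was a ratio of 2-fold or more for miRNAs that reached 50 normalized reads in either library. 2 members, the arms of miR-365a, were higher by that rule and 0 were lower, and 3 members reached the 50 reads. Over the 179 named miRNAs at that level, 7.26% were higher by the rule and 12.8% lower, and nothing is read from the members' count because these ratios chose them. Ordered by ratio, miR-365a-3p was at place 8 and miR-365a-5p at place 13, the last one past 2-fold, with let-7b-5p next at 1.90-fold. Some entries held nearly the same reads under different names. Among them are miR-374b-5p (12905 against 3512) and miR-374c-3p (12894 against 3510), both above miR-365a-3p in this order. The shares and places are thus of entries, which are not all separate miRNAs.

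miR-365b-5p, no member but the 5p arm of the chromosome 17 hairpin, went in the same direction at a far lower level. It had 28 reads in UM-SCC6-M, listed as 3.34 normalized reads, and was listed at 0 in the parental library, where the deposited fold change gives 7 reads. The ratio was 3.42-fold, and its interval of 1.53 to 9.75 contains the ratio of miR-365a-5p. miR-4725-3p, from a hairpin 52 bases upstream of MIR365B in GENCODE, was listed at 0 in both libraries.

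**Figure D2:**
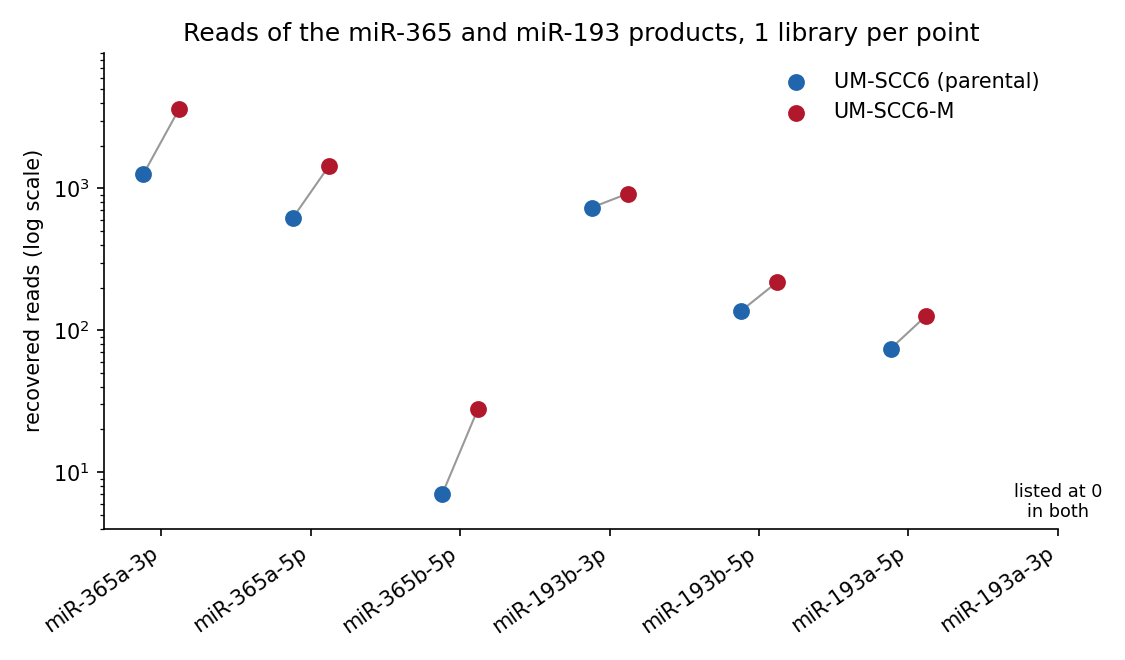
Recovered reads (y axis, log scale) of each miR-365 and miR-193 product (x axis) in the parental library (blue) and in UM-SCC6-M (red), 1 library per point. Every product with reads has the higher point in UM-SCC6-M, the miR-365a lines are steeper than that of miR-193b-3p, and miR-193a-3p is listed at 0 in both.

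miR-193b-3p, the miR-193 product with the most reads, was nearly level between the libraries. It stood at 109.6 normalized reads in UM-SCC6-M and 97.3 in the parental library, on 918 against 732 reads. Its ratio was 1.13-fold (1.02 to 1.24), or 0.17 on the log2 scale, at place 69 of the 179 ordered ratios. The median log2 ratio of those 179 miRNAs was 0.04, with quartiles of -0.61 and 0.41.

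miR-193b-5p, the minor arm of that hairpin, had 26.0 normalized reads in UM-SCC6-M and 18.2 in the parental library, a ratio of 1.43-fold (1.15 to 1.78) on 218 against 137 reads. miR-193a-5p, from chromosome 17, had 15.2 and 9.83 normalized reads, a ratio of 1.54-fold (1.15 to 2.08) on 127 against 74 reads. Both intervals lie above 1, and that of miR-193a-5p reaches past 2-fold, so at this depth it does not separate the 2 sides of the rule. Neither reached 50 normalized reads. miR-193a-3p, which carries the miR-193 seed, was listed at 0 in both libraries with no deposited fold change, and no ratio was computed. The smallest values listed above 0 were 1.08 (UM-SCC6-M) and 1.06 (parental) normalized reads. Of the 1178 named entries, 632 were listed at 0 in both.

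**Figure D3:**
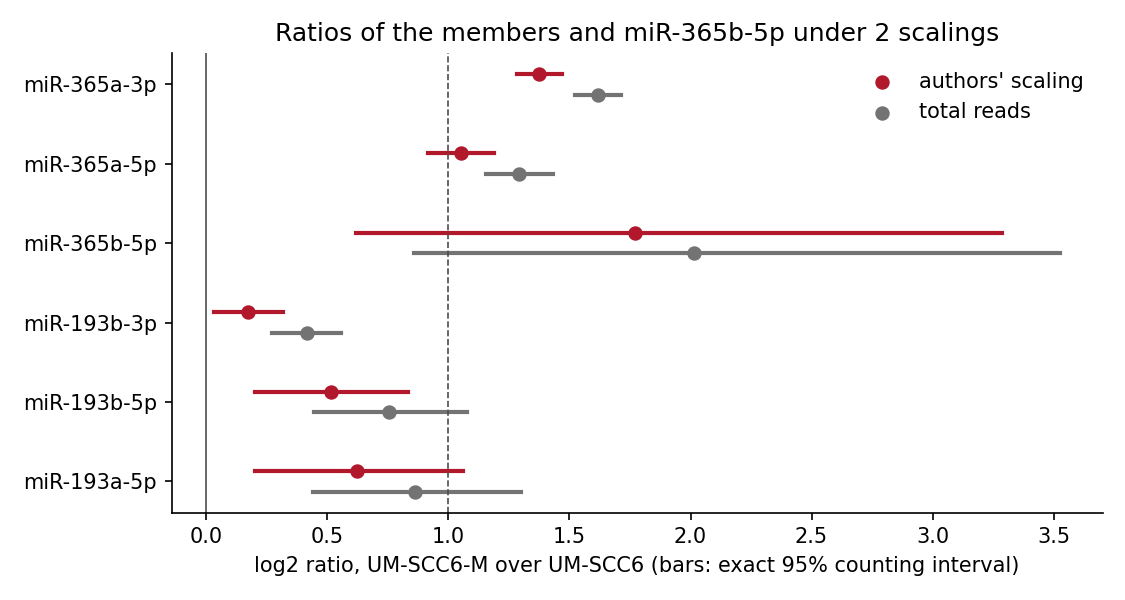
Log2 ratio of UM-SCC6-M over parental (x axis) for the members with reads and for miR-365b-5p, with points for the ratio and bars for the exact 95% counting interval, under the authors' scaling (red) and with both libraries scaled to total reads (grey). The interval of miR-365a-3p (1.28 to 1.47) lies right of the dashed 2-fold line under both, and that of miR-193b-3p left of it under both.

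Summed over the 5 members with reads, the level was 755.4 normalized reads in UM-SCC6-M and 374.9 in the parental library. The miR-365 products, miR-365b-5p included, summed to 607.9 against 250.5 normalized reads, 2.43-fold higher (2.30 to 2.56). The miR-193 products summed to 150.8 against 125.3, 1.20-fold higher (1.11 to 1.31). miR-365a-3p alone held 57.5% of the members' reads in UM-SCC6-M and 44.6% in the parental library. The members together were 0.0822% and 0.0345% of the recovered reads.

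The authors' deposited table marks 44 of the 1178 entries with miRNA names as selected, and 2 of them are members, the arms of miR-365a. Those arms were chosen because they were higher in these data, so the mark is no separate support. That table gives a q-value of 1.46e-37 for miR-365a-3p, 5.04e-11 for miR-365a-5p, 0.198 for miR-193b-3p, 0.377 for miR-193b-5p and 0.565 for miR-193a-5p. These q-values compare the 2 libraries and not the conditions.

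The next question was whether hairpins of the chromosome 16 locus kept their proportions. miR-365a-3p had 3.96 times the reads of miR-193b-3p in UM-SCC6-M and 1.72 times in the parental library. The log2 ratios of these products differed by 1.20 (counting SE 0.09), where the miR-365a-3p reads can include those of MIR365B. The order of the other products also differed, as miR-365a-5p had 1.56 times the reads of miR-193b-3p in UM-SCC6-M and 0.846 times in the parental library. For the 5p arms, miR-365a-5p had 6.54 and 4.51 times the reads of miR-193b-5p, a log2 difference of 0.54 (counting SE 0.17). These differences do not depend on how the libraries are scaled, but they use the contrast that chose the members and were not tested.

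Differences of this size occurred between mature RNAs named for other neighbouring hairpins. With 1 arm per hairpin, the most-read arm except for MIR425, 45 pairs of hairpins within 10 kb on the same strand reached 50 normalized reads. Some hairpins entered several pairs. Some mature RNAs stood for several hairpins, among them let-7a-5p (MIRLET7A1, MIRLET7A2 and MIRLET7A3) and miR-24-3p (MIR24-1 and MIR24-2). Their reads can come from more than 1 locus, so such a difference need not lie between the neighbours. Pairs further apart than MIR193B and MIR365A include MIR100 with MIRLET7A2 (2.20) and MIR23A with MIR24-2 (1.45). MIR425 entered with miR-425-3p (log2 ratio 0.35), while miR-425-5p had more reads and a log2 ratio of -0.61. Of the 1178 named entries, 1037 matched a RefSeq mature miRNA, and the set of pairs is not complete. Hairpins that entered no pair include MIR200A, MIR183, MIR93 and MIR542, though miR-200a-3p, miR-183-5p, miR-93-5p and miR-542-3p passed 50 normalized reads. Over the 45 pairs as taken, the median absolute difference in log2 ratio within a pair was 0.41, and 17.8% differed by 1 or more. Among these 45, the pair of MIR193B and MIR365A was among 7 with a difference at least as large as its own. With miR-425-5p, the pair of MIR191 (miR-191-5p, log2 ratio 0.74) and MIR425 would also be further apart than it, so its place holds for these pairs only.

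**Figure D4:**
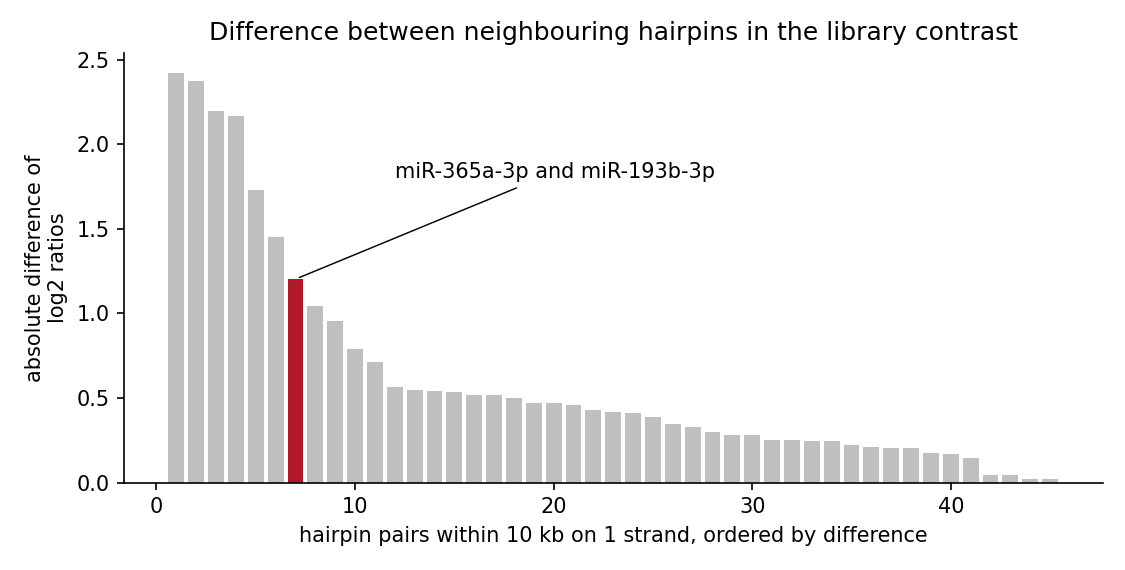
Absolute difference of log2 ratios (y axis) within each of the 45 pairs of hairpins up to 10 kb apart (x axis, ordered from largest to smallest), with miR-365a-3p and miR-193b-3p in red. MIR425 is shown with miR-425-3p, not its most-read arm, and some mature RNAs stand for several hairpins. Among the pairs shown, the red bar, at 1.20, stands in place 7, above the median of 0.41.

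On chromosome 17 the hairpins were read too thinly for the same comparison. miR-365b-5p had 0.224 times the reads of miR-193a-5p in UM-SCC6-M and 0.101 times in the parental library, a log2 difference of 1.15 with a counting SE of 0.63. The order was thus the reverse of that on chromosome 16, where the miR-365 5p arm had more reads than the miR-193 5p arm.

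The 5p arms show how the paralogous loci shared the reads. miR-365a-5p made up 98.1% of the miR-365 5p reads in UM-SCC6-M (exact 95% limits of 97.2 and 98.7) and 98.9% of those in the parental library (97.7 and 99.6). miR-193b-5p made up 63.2% of the miR-193 5p reads in UM-SCC6-M (57.9 to 68.3) and 64.9% in the parental library (58.1 to 71.4). Within each family the intervals of the libraries overlap, so a change in the balance between chromosomes 16 and 17 was not detectable at this depth. The miR-365 5p reads were thus almost all of the chromosome 16 name, whereas those of miR-193 were spread over both.

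The balance between the arms of a hairpin was then compared. The 3p arm had more reads than the 5p arm in both hairpins of chromosome 16, where the miR-365a 3p count can include reads of MIR365B. For miR-365a it had 2.55 times the reads in UM-SCC6-M and 2.03 times in the parental library, and the log2 of 5p over 3p differed by -0.32 (counting SE 0.08). For miR-193b the 3p arm had 4.20 and 5.33 times the reads, a difference of 0.34 (counting SE 0.17) in the opposite direction. Of 30 hairpins with both arms at 50 or more normalized reads, miR-365a among them, 30.0% differed by 1 or more, the median absolute difference was 0.76, and 9 had a smaller difference than miR-365a. At that floor 1 hairpin of the 30 (3.33%), miR-365a, had both arms at least 2-fold higher, which is the property it was chosen for. With a floor of 10 normalized reads, chosen after seeing the data, 3 of 70 hairpins (4.29%) had it, miR-424 and miR-483 being the others. miR-193a went the other way from its paralog, as its 5p arm was read in both libraries while its 3p arm was listed at 0.

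**Figure D5:**
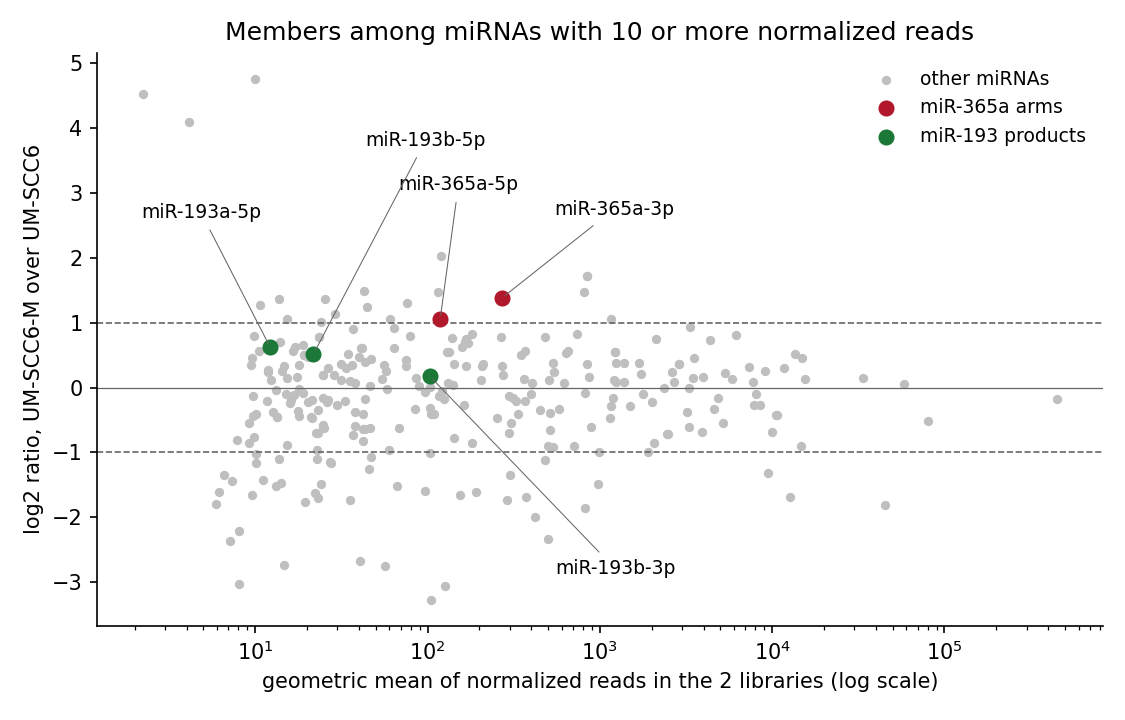
Log2 ratio of UM-SCC6-M over parental (y axis) against the geometric mean of normalized reads (x axis, log scale) for named miRNAs with 10 or more normalized reads in the higher library, 1 point each. The miR-365a arms (red) lie above the dashed line at 2-fold higher, and the miR-193 products (green) lie between 0 and that line.

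Among miRNAs that reached 50 normalized reads, those with the ratio nearest to miR-365a-3p were miR-542-3p, at 2.46-fold, miR-450b-5p, at 2.76-fold, and miR-4521, at 2.77-fold. Nearest to miR-365a-5p were miR-199b-5p and miR-28-3p, both at 2.07-fold, and let-7b-5p, at 1.90-fold. Likeness here is the absolute difference of 1 log2 ratio over 2 libraries. In abundance rank miR-365a-3p stood between miR-181b-5p and miR-30e-5p in UM-SCC6-M, and between miR-24-2-5p and miR-137 in the parental library.

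Other miRNAs reported to act on the families' reported targets were described from lists. Of 13 miRNAs reported to repress cyclin D1, 7 reached 50 normalized reads, and their median log2 ratio was 0.37 against 0.04 over all 179. miR-503-5p was at least 2-fold higher (2.36-fold), none was 2-fold lower, and the most abundant, let-7b-5p, was at 1.90-fold. The count of 1 became 2 with both libraries scaled to total reads, and 2 with a floor of 10 normalized reads, where miR-424-5p (2.01-fold) entered. Of 6 miRNAs reported to repress MCL1, 5 reached that level, with a median of -0.46. miR-29b-3p was 8.33-fold lower, none was 2-fold higher, and the most abundant, miR-29a-3p, was 1.61-fold lower. Of 13 miRNAs reported in brown fat, 11 reached it, with a median of 0.09. miR-455-5p was 3.96-fold lower, none was 2-fold higher, and the most abundant, miR-26a-5p, had a ratio of 1.20-fold. In all, 20.1% of the 179 miRNAs were 2-fold apart in either direction.

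Markers of other cell types were checked in the same libraries. The epithelial list summed to 19620 normalized reads in UM-SCC6-M and 16340 in the parental library over the 5 of its 7 miRNAs that were analysed, and its members went both ways. miR-200b-3p was 1.36-fold higher and made up most of the sum, and miR-203a-3p had 23 reads against 7. miR-200a-3p was 1.99-fold lower, miR-429 was 1.07-fold lower, and miR-200c-3p had 15 reads against 20. The fibroblast list summed to 113.1 against 64.6, with 3 of its 7 (miR-127-3p, miR-145-5p and miR-214-3p) at 0 in both. Its members went both ways too, as miR-199a-3p and miR-199b-5p were both 2.07-fold higher, while miR-143-3p was lower by 2.53-fold and the level of miR-199a-5p rested on 1 read in UM-SCC6-M and 13 in the parental library. Its miR-199b-5p had the ratio of miR-365a-5p, as given above, and its part in the miR-365a result was not tested. The endothelial list of 2 summed to 550.5 against 986.1, where miR-126-3p was 1.86-fold lower and miR-126-5p 1.71-fold higher. The muscle list, with 2 of 3 analysed, summed to 111.3 against 337.1. Nearly all of that was miR-1-3p, 3.06-fold lower, and miR-133a-3p had 21 reads against 31. Of 4 blood miRNAs analysed, 3 were at 0 in both, and the list summed to 17.9 against 24.6. In bulk RNA a higher level in every cell and a larger share of cells with the miRNA cannot be told apart.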

How the data were processed

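Adaptors were ligated to small RNA from 3 µg of total RNA per sample, and products of 140 to 160 bp were cut from a gel, per the labels' protocols. Bowtie is named in the submitters' processing notes. How reads were counted and scaled, the build and the miRNA release are not given in the sources used here. In their table the authors deposited a read signal scaled per library. The log2 fold change, p-value and q-value columns hold the authors' own comparison, per the file headers. Each value divided by the step of its library gave the reads; the step was 0.119 (UM-SCC6-M) or 0.133 (parental), with a largest deviation from whole reads of 7.16e-05. Where 1 library was listed at 0, the deposited fold change gave its reads. Log2 ratios used the authors' scaling with 0.5 reads added to each library. Intervals are Clopper-Pearson. Unnamed candidates (35) were left out. Named genes were, by rule, the members, other miR-365 or miR-193 entries, miRNAs that share a seed or lie within 10 kb of a hairpin of these families, the 3 nearest ratios, neighbours in rank, and, of each list, its most abundant and its 2-fold members. The members and lists were chosen with earlier results of these data known. The code was checked on simulated data. Python 3.11.15, numpy 2.4.6, pandas 2.3.3, scipy 1.17.1 and matplotlib 3.10.9 were used.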

Additional observations from a re-analysis of the deposited data

How the results depend on the processing

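The ratios of the 5 members with reads were recomputed with 4 other scalings, the deposited fold changes, 5 added reads and other floors. A floor cannot change a ratio, so the values under other floors only repeat the reported ones. The deposited fold changes rest on the same reads and the same scaling, so their closeness was fixed beforehand. Both kinds are in the count that follows, which is therefore not a count of separate checks. All 41 resulting log2 ratios were above 0, and 3 lay outside the counting interval of the reported value, all with both libraries scaled to total reads, which moves every log2 ratio up by 0.24. There miR-365a-3p was at 1.62, miR-365a-5p at 1.29 and miR-193b-3p at 0.41. Of the 2 members called higher, 0 remained at a 4-fold threshold, 1 (miR-365a-3p) with a floor of 200 normalized reads, and 1 (miR-365a-3p) where the interval had to lie wholly beyond 2-fold. Adding 5 reads left the 2 arm balances and 5 partner differences recomputed within their counting error, among them miR-365b-5p minus miR-193a-5p, an alternative chosen after seeing the data, which went from 1.15 to 0.72. Depth limits miR-365b-5p and the miR-193 5p arms most. No paired analysis was possible because each group has 1 library.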
